A study of Homo sapiens with 8 samples.

Results

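Chemokines and cytokines are small secreted proteins by which cells call in and instruct other cells. Chemokines are grouped by the spacing of conserved cysteines: CXC chemokines with the amino acids glutamate, leucine and arginine before the first cysteine (ELR chemokines) bind CXCR1 and CXCR2 and draw neutrophils, CXCL9, CXCL10 and CXCL11 bind CXCR3 and draw T cells, and CC chemokines draw monocytes, lymphocytes or dendritic cells. Interleukin 1 acts through the transcription factor NF-kB, which also drives many chemokine genes, whereas cytokines of the interleukin 6 family signal through gp130 and STAT3. Bile duct epithelium and cholangiocarcinoma cells are known to make several of these proteins, above all interleukin 6 and ELR chemokines.

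The 37 genes described here were chosen by name from the 34809 gene names of the array: 6 ELR chemokines, 3 CXCR3 ligands, 4 CC chemokines, 4 other CXC and CX3C chemokines, and 20 interleukins, interleukin 6 family members, colony stimulating factors and related cytokines. The samples were HuCCT1 cells, a human intrahepatic cholangiocarcinoma line, with 1 of 4 vectors: shControl and shNontarget, which the labels call control, and shBEX2-1 and shBEX2-2, retroviral short hairpin RNAs against BEX2 that define the BEX2-knockdown sublines. Total RNA of each vector was measured on 2 single-colour arrays, 8 in all, and no treatment is given for any of them. The study's results describe control cells with a hairpin against luciferase, and the labels do not say which control vector it is. The target sequences listed for the BEX2 hairpins overlap, being read on opposite strands of the same stretch, and nothing says whether a subline was 1 clone or whether the 2 arrays per vector hold RNA of separate cultures, so that p-values measure only the spread between these arrays.

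Each level is the log2 intensity of a gene's brightest probe minus the 75th percentile of its array, so that 0 is a fairly bright spot. In intensity units that percentile ran from 667 to 838 in control cells and from 441 to 631 in BEX2-knockdown cells. The scanner software placed 59.8% to 64.6% of an array's 58717 spots well above background and called none saturated. Levels of different genes are not comparable, since each rests on its own probe. The shNontarget arrays stood apart from each other: 34.9% of the 20463 genes tested were over 1 log2 unit apart there, against at most 1.76% for any other vector. Among the tested chemokine and cytokine genes the median difference between the arrays of a vector was 0.63 for shNontarget and between 0.09 and 0.13 for the others. All arrays were on 1 slide, with the control arrays in row 1 and the knockdown arrays in row 2, so that slide position cannot be told apart from group.

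BEX2 itself, the targeted gene, read -3.36 and -3.91 in shControl, -2.70 and -3.77 in shNontarget, -5.21 and -5.54 in shBEX2-1, and -4.92 and -4.60 in shBEX2-2 cells. Every knockdown array lay below every control array, with a log2 fold change of -1.63 ± 0.32 (SE, limma, Benjamini-Hochberg adjusted p = 0.0116). In shBEX2-1 cells the BEX2 probe was not well above background on either array, and there BEX2 was at least 3.83-fold lower than in the control cells.

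Of the cells' defining markers, all 7 biliary epithelial genes (KRT7, KRT8, KRT18, KRT19, EPCAM, CDH1 and SOX9) were well above background on all 8 arrays, and KRT8 was called higher in BEX2-knockdown cells (log2 fold change 1.02 ± 0.22, SE, limma, adjusted p = 0.0165). The hepatocyte genes ALB, TTR and F9 were well above background on no array and APOA1 on 3 control and 3 knockdown arrays. Of the leukocyte markers 5 were tested. The T cell genes CD4, at 1.93 or higher, and CD8A were well above background on all 8 arrays and were not called (log2 fold changes -0.25 and 0.00), PTPRC was so on 3 control and 4 knockdown arrays, and the B cell gene MS4A1 on none. CD14 and CD68, which myeloid cells express, were called higher in BEX2-knockdown cells, by 0.54 ± 0.13 and 0.99 ± 0.28 on the log2 scale (SE, limma, adjusted p = 0.0295 and 0.0474). The summed level of the leukocyte list, on a linear scale where 1 is the array's 75th percentile, ranged from 4.68 to 8.99 on control and from 5.95 to 6.42 on knockdown arrays, and its part in the results below was not tested. Of the fibroblast markers, COL1A1 and LUM were well above background on all arrays, and COL1A2, COL3A1 and THY1 on none. Of the endothelial markers, CDH5 and VWF were so on all arrays, and KDR, PECAM1 and TEK on none. No tested gene of either list was called. RNA came from whole cultures, so that fewer expressing cells and less RNA per cell cannot be told apart.

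Before the values, the promoters of the ELR chemokine genes are shown, since this family gave the most calls, having also the most tested members. Their genes sit together: the array's probes for IL8, CXCL6, CXCL1, CXCL5, CXCL3 and CXCL2 lie in that order on chromosome 4, between positions 74609265 and 74963044 of hg19, the build of the array files, IL8, CXCL6 and CXCL1 on the plus strand and the other 3 on the minus strand. Promoters were matched by symbol in a RefSeq promoter table of build GRCh38.p14, which held 26 of the 37 genes. Each line gives the bases from 130 to 31 before the RefSeq start, 5′ to 3′ on the gene's strand, with the letters matching an NF-kB site (GGGANNTTCC, either strand) in capitals.
CXCL1 (chr4:73869263-73869362, plus): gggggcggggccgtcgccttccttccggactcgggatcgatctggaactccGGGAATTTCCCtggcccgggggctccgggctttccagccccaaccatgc
CXCL2 (chr4:74099226-74099325, minus): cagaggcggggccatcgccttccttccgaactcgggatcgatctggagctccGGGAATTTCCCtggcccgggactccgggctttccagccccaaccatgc
CXCL3 (chr4:74038720-74038819, minus): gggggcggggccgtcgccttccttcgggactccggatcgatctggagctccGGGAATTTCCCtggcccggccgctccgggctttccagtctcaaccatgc
CXCL5 (chr4:73998708-73998807, minus): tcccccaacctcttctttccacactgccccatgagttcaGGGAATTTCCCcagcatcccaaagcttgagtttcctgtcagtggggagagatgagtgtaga
CXCL6 (chr4:73836548-73836647, plus): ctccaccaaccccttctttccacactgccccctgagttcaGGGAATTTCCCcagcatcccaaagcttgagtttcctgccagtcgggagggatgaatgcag
IL8, or CXCL8 (chr4:73740439-73740538, plus): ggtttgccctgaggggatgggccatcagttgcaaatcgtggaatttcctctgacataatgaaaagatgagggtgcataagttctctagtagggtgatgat

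In CXCL1, CXCL2, CXCL3, CXCL5 and CXCL6, the matched letters read GGGAATTTCCC, which holds a match on each strand 1 base apart. They began 79, 78, 79, 91 and 90 bases before the start. The IL8 window holds no match to these letters, which says only that the letters are not there. Over the 250 bases before the start, the NF-kB letters were found in 9 of the 26 member promoters (CXCL1, CXCL2, CXCL3, CXCL5, CXCL6, CXCL10, CXCL11, IL6 and IL32) and in 1.4% of 35116 promoters of the same length. An AP-1 site (TGANTCA) was found in 8 of the 26 (IL8, CXCL11, CXCL14, IL1A, IL1RN, IL11, IL23A and EBI3) and in 6.57% of all, and the core of an interferon response element (GAAANNGAAA) in 2, CXCL9 and CXCL10, and in 3.02% of all. Of the 7 members called higher below, 6 had a promoter in the table and 3 of those, CXCL1, CXCL3 and CXCL5, held the NF-kB letters. These are matches of letters, with no test and no measurement of binding.

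Of the 37 genes, 27 passed the detection filter and were tested. On no array well above background were 6: CXCL9, CXCL17, CX3CL1, IL33, TSLP and CSF3. Another 4, CXCL10, CXCL11, CCL5 and CXCL14, were well above background on 1 to 3 arrays, too few for the test. Among the 27, 25 were well above background on all 8 arrays and 2, IL12A and EBI3, on some. The filter did not use the vectors, but a gene detected in the cells of 1 vector alone could not pass it.

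Between the 4 BEX2-knockdown and the 4 control arrays, 7 members were called higher and 1 lower (limma, Benjamini-Hochberg adjusted p under 0.05 over 20463 genes), where 6.68% of all genes were called higher and 6.26% lower. Errors after ± are standard errors of the log2 fold change here and below. The genes called higher were CXCL1, CXCL3, CXCL5, CCL20, IL1A, IL1B and IL7, and the gene called lower was LIF. That makes 29.6% of the tested members against 12.9% of all genes called in either direction. The members were chosen with earlier results of these data known, so that these shares are a description and not a test. The knockdown arrays lay above every control array for 9 members and below every one for 2, against 11.5% and 10.6% of all genes. The median log2 fold change was 0.35 over the tested members and 0.0269 over all genes, with 20 members fitted higher and 7 lower.

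**Figure D1:**
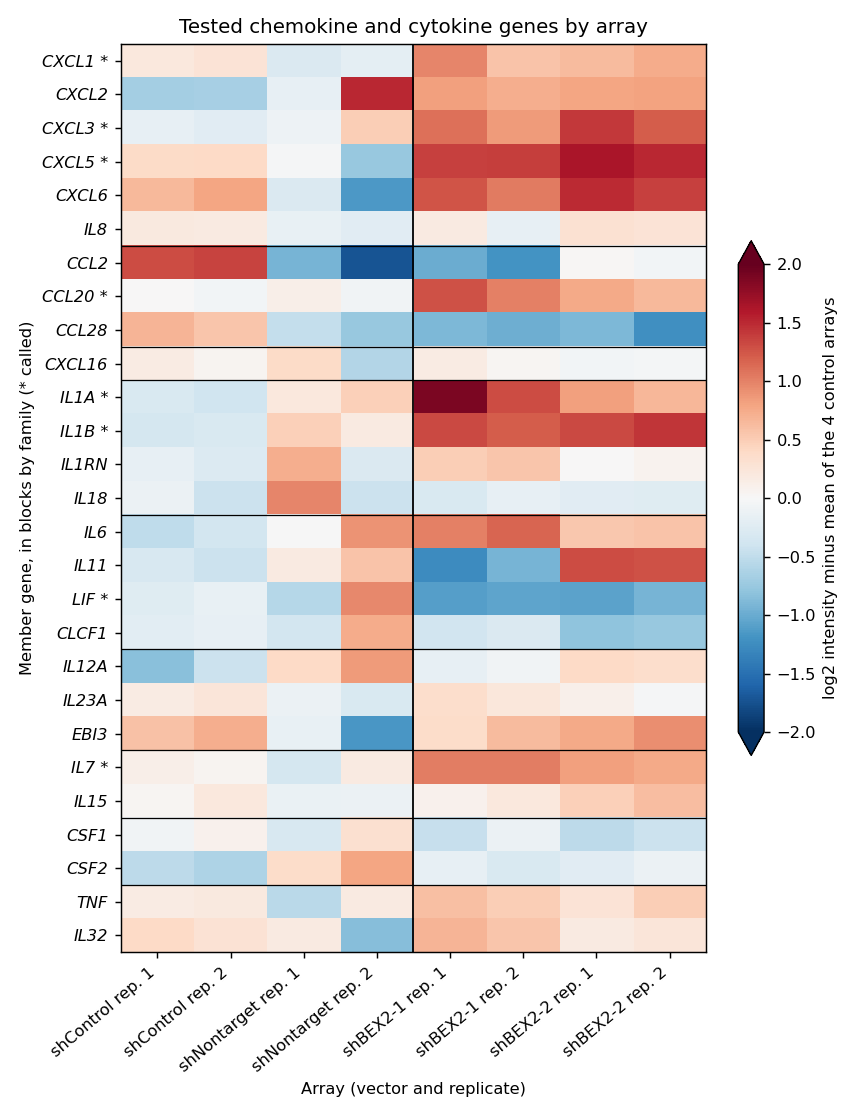
Levels of the 27 tested members (rows, in blocks by family, an asterisk where called) on each of the 8 arrays (columns), as the log2 intensity minus the mean of the 4 control arrays; red is higher and blue lower, and the colours end at 2 log2 units either way. CXCL5 and IL1B are red on all 4 knockdown arrays, LIF is blue on all 4, and the shNontarget columns differ from each other in rows such as CXCL2 and IL18.

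The ELR chemokines, the neutrophil attractants, gave 3 of the 7 calls, and all 6 were fitted higher, though IL8 turned to -0.04 against shControl alone. CXCL5, with the largest fold of them, read 3.93 and 3.95 in shControl, 3.53 and 2.79 in shNontarget, 4.91 and 4.93 in shBEX2-1, and 5.18 and 5.05 in shBEX2-2 cells. The lowest knockdown array was nearly 1 log2 unit above the highest control array, and the 4 knockdown values lay between 4.91 and 5.18. CXCL5 rose 2.76-fold, by 1.46 ± 0.25 on the log2 scale (SE, n = 4 and 4 arrays, limma, adjusted p = 0.00682).

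CXCL3, a growth-regulated oncogene chemokine like CXCL1 and CXCL2, read -2.14 and -2.20 in shControl, -2.08 and -1.49 in shNontarget, -0.87 and -1.12 in shBEX2-1, and -0.56 and -0.76 in shBEX2-2 cells. The groups did not overlap, and the control array nearest to the knockdown arrays was shNontarget replicate 2. The change was 2.22-fold (log2 1.15 ± 0.20, limma, adjusted p = 0.00674). For CXCL1 the values were 2.84 and 2.90, 2.34 and 2.44, 3.60 and 3.20, and 3.27 and 3.37 in the same order of vectors. Again all knockdown arrays were the higher ones, by 1.66-fold (log2 0.73 ± 0.17, limma, adjusted p = 0.022). A second CXCL1 probe differed by 0.76 between the groups, close to the 0.73 of the brighter one.

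CXCL2 and CXCL6 were not called, and in both the control vectors differed from each other. CXCL2 read 0.17 and 0.20 in shControl, 0.69 and 2.37 in shNontarget, 1.67 and 1.58 in shBEX2-1, and 1.65 and 1.66 in shBEX2-2 cells. The 4 knockdown values were within 0.1 of each other and above 3 control arrays, and shNontarget replicate 2 exceeded them all (log2 fold change 0.78 ± 0.43, limma, adjusted p = 0.281). CXCL6, the closest relative of CXCL5, read -2.48 and -2.33, -3.41 and -4.28, -1.86 and -2.08, and -1.63 and -1.76. Here the knockdown arrays lay above all control arrays, but the control arrays spread over almost 2 log2 units (1.29 ± 0.39, limma, adjusted p = 0.0636). Taken against shControl alone or against shNontarget alone CXCL6 was called, at 0.57 and 2.01 (limma, adjusted p = 0.022 and 0.0357).

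IL8, the best known neutrophil chemokine and the remaining member of this family, read -1.36 and -1.38, -1.71 and -1.79, -1.38 and -1.73, and -1.26 and -1.28. Its groups overlapped and the difference of 0.15 ± 0.17 was within the spread (limma, adjusted p = 0.618). The probes for CXCL1, CXCL2 and CXCL3, whose transcripts are similar, shared no run longer than 7 of their 60 bases, and those for CXCL5 and CXCL6 none longer than 5. Probes were compared only with each other, so that binding of a probe to the transcript of a related gene was not tested.

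**Figure D2:**
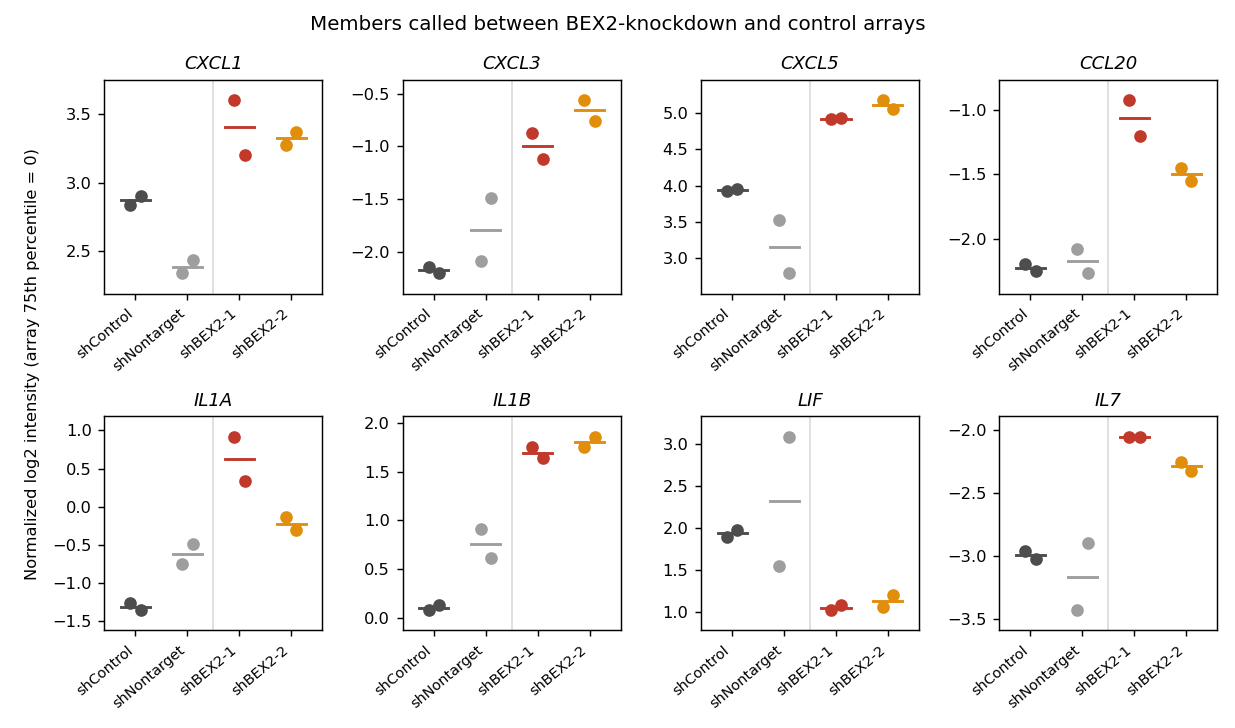
Levels of the 8 called members by vector, in log2 intensity with the array's 75th percentile at 0; each point is an array (2 per vector), each bar the mean of a vector, and the vertical line separates control from BEX2-knockdown vectors. The knockdown points lie above all control points in every panel except LIF, where they lie below; the vertical scale differs between panels.

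Among the CC chemokines, CCL20, the ligand of CCR6 that attracts dendritic cells and Th17 cells, was called higher. It read -2.20 and -2.25 in shControl, -2.08 and -2.27 in shNontarget, -0.92 and -1.20 in shBEX2-1, and -1.45 and -1.55 in shBEX2-2 cells. The control arrays were close together and both sublines lay above them, by 1.89-fold overall (log2 0.92 ± 0.16, limma, adjusted p = 0.0077). CCL28, a mucosal chemokine made by epithelia, read 0.16 and 0.04, -0.99 and -1.28, -1.42 and -1.49, and -1.42 and -1.75. The knockdown arrays were below every control array, but shNontarget lay much nearer to them than to shControl, and CCL28, fitted 2-fold lower with a standard error of 0.32 on the log2 scale, was not called (limma, adjusted p = 0.0719). CCL2, the monocyte chemoattractant, read 1.21 and 1.25, -1.03 and -1.83, -1.10 and -1.30, and -0.08 and -0.15. Its groups overlapped completely, since shNontarget gave the lowest single value and shControl the highest, and the pooled difference was -0.56 ± 0.69 (limma, adjusted p = 0.656).

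In the interleukin 1 family, IL1A and IL1B were called higher, and IL1RN and IL18 were not called. IL1B, the secreted inflammatory form, read 0.08 and 0.13 in shControl, 0.91 and 0.61 in shNontarget, 1.75 and 1.64 in shBEX2-1, and 1.75 and 1.86 in shBEX2-2 cells. The knockdown arrays, between 1.64 and 1.86, stood above the control arrays, by 2.49-fold (log2 1.31 ± 0.19, limma, adjusted p = 0.00358), the smallest adjusted p among the members. IL1A, the form that also acts while bound to the cell, read -1.27 and -1.36, -0.75 and -0.49, 0.92 and 0.33, and -0.14 and -0.31. The groups did not overlap, although shBEX2-2 came within 0.2 of shNontarget replicate 2, and the change was 2.25-fold (log2 1.17 ± 0.30, limma, adjusted p = 0.0336).

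IL1RN, the antagonist of the interleukin 1 receptor, read 2.62 and 2.51 in shControl, 3.52 and 2.50 in shNontarget, 3.28 and 3.34 in shBEX2-1, and 2.80 and 2.86 in shBEX2-2 cells. It overlapped between the groups and differed by 0.28 ± 0.25 (limma, adjusted p = 0.517), and a second probe differed by 0.27. IL18, which matures through the inflammasome like IL1B, differed by -0.24 ± 0.29 (limma, adjusted p = 0.649) and overlapped, with its highest value of 3.44 in shNontarget replicate 1. IL33, the nuclear alarmin of this family, was on no array well above background.

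Of the 4 tested members of the interleukin 6 family, which share the receptor chain gp130, LIF was called, and it was lower. It read 1.89 and 1.98 in shControl, 1.55 and 3.09 in shNontarget, 1.02 and 1.08 in shBEX2-1, and 1.06 and 1.20 in shBEX2-2 cells. All knockdown arrays were lower than all control arrays, by 2.06-fold (log2 -1.04 ± 0.29, limma, adjusted p = 0.0462), and the call was close to the threshold. A second, much dimmer LIF probe differed by -0.44, but its groups overlapped. It read -4.17 and -4.54 in shControl, -4.86 and -3.03 in shNontarget, -3.95 and -4.81 in shBEX2-1, and -4.82 and -4.79 in shBEX2-2 cells. The difference rested largely on shNontarget replicate 2.

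IL6 read -0.12 and 0.02, 0.38 and 1.30, 1.40 and 1.56, and 0.94 and 0.96. Its shBEX2-2 values fell between those of the shNontarget arrays, and the difference of 0.82 ± 0.30 was not called (limma, adjusted p = 0.118), while against shControl alone it was (1.26, limma, adjusted p = 0.00253). CLCF1, another ligand of this family, differed by -0.56 ± 0.25 (limma, adjusted p = 0.179). IL11 had nearly equal group means, and its sublines lay on opposite sides of the controls, as described further on.

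IL7, the growth factor of lymphocytes, was called higher. It read -2.96 and -3.02 in shControl, -3.43 and -2.90 in shNontarget, -2.05 and -2.05 in shBEX2-1, and -2.25 and -2.32 in shBEX2-2 cells. The groups did not overlap and the change was 1.88-fold (log2 0.91 ± 0.17, limma, adjusted p = 0.00915). IL15, which sustains natural killer and memory T cells, differed by 0.35 ± 0.16 (limma, adjusted p = 0.191), and TSLP was not detected.

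The remaining tested cytokines were not called. TNF read -0.07 and -0.03, -0.76 and -0.05, 0.37 and 0.27, and 0.05 and 0.26, so that its knockdown arrays lay just above all control arrays, with a difference of 0.46 ± 0.18 (limma, adjusted p = 0.137). IL32, a cytokine of lymphocytes and epithelia, differed by 0.42 ± 0.27. The interleukin 12 family, dimers of shared subunits, gave 0.16 ± 0.16 for IL23A, 0.67 ± 0.41 for EBI3 and 0.13 ± 0.39 for IL12A. The colony stimulating factors CSF1, for macrophages, and CSF2, for granulocytes and macrophages, gave -0.38 ± 0.17 and -0.20 ± 0.30, and CXCL16 gave 0.03 ± 0.20. Their adjusted p-values by limma lay between 0.188 for CSF1 and 0.952 for CXCL16 apart from TNF, and only TNF kept its groups apart. Dimmer probes gave 0.02 and 0.07 for CSF1 and 0.39 for CXCL16, so that these differences varied with the probe. A second IL32 probe gave 0.34.

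**Figure D3:**
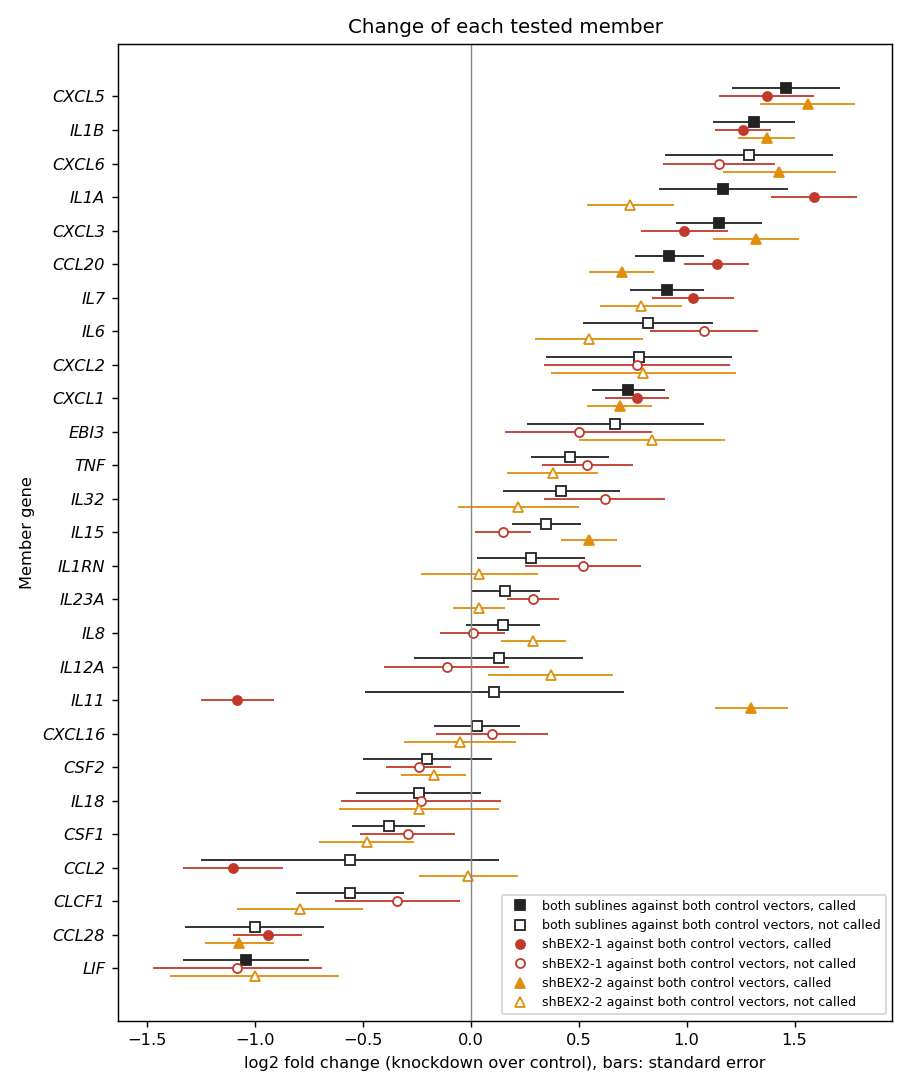
Log2 fold change of each of the 27 tested members with its standard error, for both sublines pooled (squares), shBEX2-1 (circles) and shBEX2-2 (triangles), each against both control vectors; filled symbols were called. CXCL5 at 1.46 is the highest pooled value and LIF at -1.04 the lowest, and IL11 lies at -1.08 in shBEX2-1 and at 1.30 in shBEX2-2.

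The choice of control vector changed the count of calls. Against shControl alone 14 members were called, 11 higher and 3 lower, where 33.4% of all genes were called, and against shNontarget alone 3 were called, CXCL5, CXCL6 and IL1B, where 1.67% of all genes were called. The 14 included all 8 of the pooled comparison, and the 3 shared 2 with it. Within replicate numbers 1 and 2 taken alone, the differences were 1.31 and 1.62 for CXCL5 and 1.25 and 1.38 for IL1B. LIF gave -0.68 and -1.40. The direction of the 8 called members could not change in this split, since their knockdown and control arrays did not overlap.

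Each subline was then set against both control vectors in a model with 4 vectors and 1 shared spread. That spread comes from differences between the 2 arrays of a vector, so that a gap between the control vectors does not enter these p-values. The contrasts share their control arrays and are given side by side. In shBEX2-1 cells 7 members were called higher and 3 lower, where 3.38% and 3.59% of all genes were (6.97% in either direction). In shBEX2-2 cells 8 were called higher and 1 lower, where 4.85% and 4.81% were (9.66% in either direction). CXCL5 gave 1.37 ± 0.22 in shBEX2-1 and 1.56 ± 0.22 in shBEX2-2, IL1B 1.26 ± 0.13 and 1.37 ± 0.13, and CCL20 1.14 ± 0.15 and 0.70 ± 0.15, all called in both (limma, adjusted p between 0.00391 and 0.0355).

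CXCL1 and CXCL3 were also called in both. CCL28 was called lower in both, at -0.94 ± 0.16 in shBEX2-1 and -1.07 ± 0.16 in shBEX2-2 (limma, adjusted p = 0.0252 and 0.013). These errors leave out the gap between the control vectors, and the pooled fit, with an error of 0.32, did not call CCL28. Its mean was 0.10 in shControl, -1.13 in shNontarget, -1.45 in shBEX2-1 and -1.58 in shBEX2-2 cells, so that most of the fall was against shControl. With the replicate number as a block, 6 calls remained for shBEX2-1, where CXCL1, CXCL3, CCL2 and IL7 gave adjusted p = 0.0641, 0.0711, 0.0525 and 0.0531 (limma). For shBEX2-2 the block left 7, with CXCL1 at 0.071 and IL15 at 0.0612 (limma, adjusted p). Shares over all genes are not given for these blocked contrasts, so that the loss of calls cannot be read as particular to the members.

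Some members were called in 1 subline. IL1A was called higher in shBEX2-1 (1.59 ± 0.20, limma, adjusted p = 0.0106) and gave 0.74 ± 0.20 in shBEX2-2 (adjusted p = 0.071). IL7 was called in shBEX2-1 at 1.03 ± 0.19 and gave 0.79 ± 0.19 in shBEX2-2 (limma, adjusted p = 0.0316 and 0.0528), whereas CXCL6 was called in shBEX2-2 at 1.43 ± 0.26 and gave 1.15 ± 0.26 in shBEX2-1 (adjusted p = 0.0237 and 0.0544). IL15 was called in shBEX2-2 at 0.55 ± 0.13 (limma, adjusted p = 0.0484) and gave 0.15 ± 0.13 in shBEX2-1. A call in 1 subline alone does not show that the sublines differ, which the direct comparison addresses.

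Set against each other, the sublines gave no called member (limma, adjusted p under 0.05), where 0.00977% of all genes were called. At an unadjusted p under 0.05 there were 5 members, 18.5% of those tested against 7.29% of all genes: IL11, CCL2, IL1A, IL15 and CCL20. IL11, a gp130 cytokine linked to fibrosis, read -1.29 and -1.39 in shControl, -0.79 and -0.40 in shNontarget, -2.22 and -1.89 in shBEX2-1, and 0.34 and 0.31 in shBEX2-2 cells. The shBEX2-1 arrays were below all control arrays and the shBEX2-2 arrays above them all. Against the controls, IL11 was called lower in shBEX2-1 (-1.08 ± 0.17, limma, adjusted p = 0.0195) and higher in shBEX2-2 (1.30 ± 0.17; adjusted p = 0.00898).

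Between the sublines IL11 was 5.2-fold lower in shBEX2-1 cells (log2 -2.38 ± 0.20), with an adjusted p of 0.0566 by limma that narrowly missed the threshold and passed it under quantile normalization. CCL2 was called lower in shBEX2-1 (-1.10 ± 0.23, limma, adjusted p = 0.0443) and gave -0.01 ± 0.23 in shBEX2-2, and the sublines differed by -1.09 ± 0.27 (adjusted p = 0.297). The mean of CCL2 in shBEX2-1, -1.20, lay below the shControl mean of 1.23 and above the shNontarget mean of -1.43, so that the direction turned with the control vector. For IL1A, IL15 and CCL20 the sublines differed by 0.85 ± 0.23, -0.40 ± 0.15 and 0.43 ± 0.17 (limma, adjusted p = 0.346, 0.601 and 0.649).

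CCL5, which draws T cells and is known as an interferon and NF-kB target, was detected in shBEX2-1 cells alone. Its levels were -7.24 and -7.34 in shControl, -6.60 and -7.38 in shNontarget, -4.13 and -3.67 in shBEX2-1, and -7.06 and -7.26 in shBEX2-2 cells, and only the shBEX2-1 arrays were well above background. As intensities the shBEX2-1 spots read 25.2 and 41.1 and all others between 4.02 and 8.7. CCL5 was thus at least 5.24-fold higher in shBEX2-1 than in control cells and at least 5.92-fold higher than in shBEX2-2 cells, bounds set against the dimmest signal counted as well above background on each array. It was detected on too few arrays to be tested.

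The CXCR3 ligands were dim as well. CXCL10 was well above background on 1 control, 1 shBEX2-1 and 1 shBEX2-2 array, CXCL11 on 1 array of each subline, and CXCL9 on none.

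**Figure D4:**
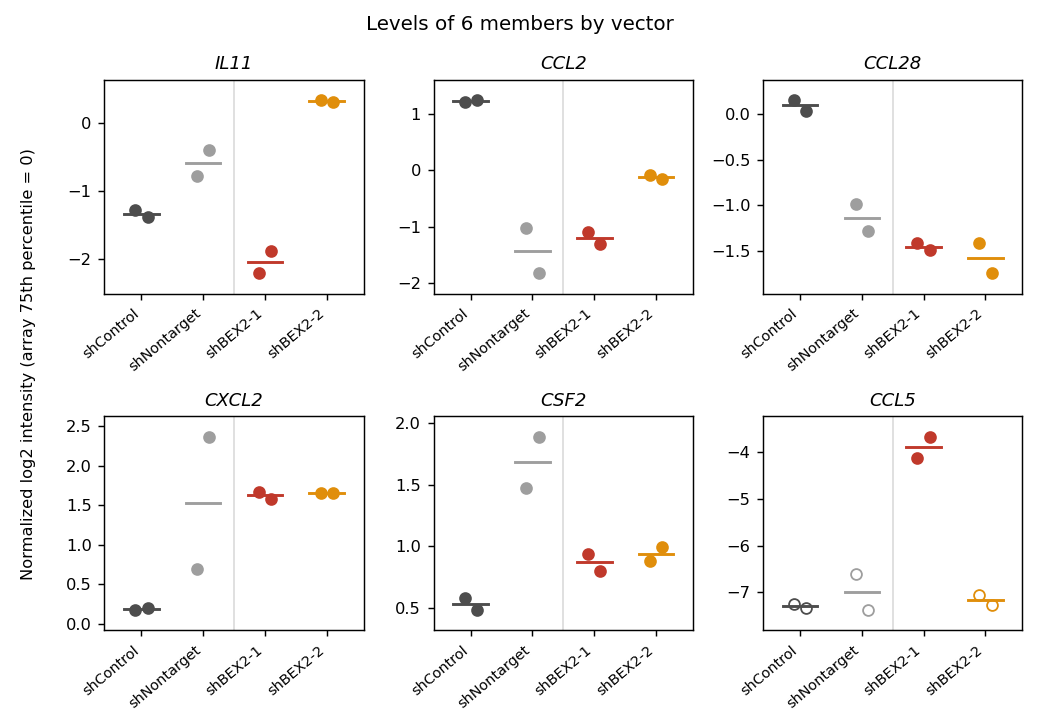
Levels by vector of 6 members chosen after their values were seen, in log2 intensity with the array's 75th percentile at 0; each point is an array, open where no array of that vector was well above background, and each bar is a vector's mean. IL11 is lowest in shBEX2-1 and highest in shBEX2-2, CCL2 is highest in shControl, and CCL5 rises above background in shBEX2-1; the vertical scale differs between panels.

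The control vectors were compared directly to show how far members move without a BEX2 hairpin. No member was called between shNontarget and shControl (limma, adjusted p under 0.05), as for 0% of all genes, but 14 members, 51.9% of those tested, passed an unadjusted p under 0.05, against 7.66% of all genes. CCL2 was 6.31-fold lower in shNontarget (log2 -2.66 ± 0.27, limma, unadjusted p = 4.59e-05, adjusted p = 0.235). CCL28 was lower by 2.35-fold (-1.23 ± 0.18) and CXCL6 by 2.71-fold (-1.44 ± 0.30), with adjusted p of 0.341 and 0.377 by limma.

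CSF2 read 0.58 and 0.48 in shControl and 1.47 and 1.89 in shNontarget, with the 4 knockdown arrays between 0.80 and 0.99, so that the control vectors lay on either side of the sublines. The difference between the control vectors was 1.15 ± 0.18 (limma, adjusted p = 0.344). EBI3 was detected on both shControl arrays and no shNontarget array, at least 2.34-fold lower in the latter, and IL12A the other way round, at least 2.35-fold higher in shNontarget. The shNontarget arrays themselves were up to 1.68 apart among the tested members, for CXCL2, and over 1 apart for 7 of them.

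Receptors and pathway genes around these ligands were counted from lists of textbook members. Of 8 tested chemokine receptors, 1 was called lower, where 12.9% of all genes were called in either direction, and CXCR5 is given apart. CXCR5, the receptor of CXCL13, was on no control array and on all 4 knockdown arrays well above background, at least 2.12-fold higher. It passed the filter only through the knockdown arrays, so that its value is a description and its call is not counted here. CCRL2, an atypical receptor for chemerin, was called lower (log2 fold change -0.72 ± 0.19, limma, adjusted p = 0.0383). Among the others, CXCR1, CCR1, CCR7 and CX3CR1 were on no array well above background.

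Of 21 tested cytokine receptors, IL1R2 was called higher and IL1RAP lower, against 12.9% of all genes in either direction, and IL7R is given apart. IL7R, which pairs with IL7, was detected on all 4 knockdown arrays, between -3.14 and -4.90, and on no control array, at least 4.95-fold higher. It too passed the filter only through the knockdown arrays, is given as a description and is not counted here. IL1R2, the decoy receptor of interleukin 1, was higher by 1.41 ± 0.30, and IL1RAP, the signalling partner chain of its receptor, was called lower (log2 fold change -1.15 ± 0.24, limma, adjusted p = 0.0175 and 0.0139). IL1RAP read between 0.30 and 1.39 on control and between -0.34 and -0.08 on knockdown arrays.

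All 30 NF-kB pathway components were tested, and 2 were called, both lower, where 12.9% of all genes were called and 6.26% were lower. They were RELB, a subunit of the noncanonical pathway (-0.71 ± 0.11, limma, adjusted p = 0.00464), and IRAK2, a kinase below the interleukin 1 receptor (-0.72 ± 0.15, limma, adjusted p = 0.0132). The median log2 fold change of the list was 0.03. Of 18 tested NF-kB targets that are not chemokines or cytokines, 3 were called, beside the same 12.9% over all genes. The 2 called higher were BIRC3, an inhibitor of cell death (0.95 ± 0.16, limma, adjusted p = 0.00681), and SOD2, the mitochondrial superoxide dismutase (0.87 ± 0.21, limma, adjusted p = 0.0261). RELB, which like NFKBIA and others is in both lists, was the 1 called lower, and the median of the list of targets was 0.25.

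Among 11 further tested chemokines PF4, or CXCL4, a platelet chemokine, was the 1 gene called, higher by 0.77 ± 0.19 (limma, adjusted p = 0.0288), and among 9 further interleukins, interferons and related cytokines CTF1, cardiotrophin of the interleukin 6 family, was the 1 gene called, lower at -0.86 ± 0.21 (limma, adjusted p = 0.0279). Over all genes 12.9% were called, and the medians of these lists were 0.26 and 0.01. Of the 39 genes of the second list that the array holds, 22 were well above background on no array, among them IFNB1, IFNG, IL10 and IL17A.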

How the data were processed

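RNA of HuCCT1 cells with 4 vectors was measured on 8 single-colour Agilent arrays, 2 per vector, grouped by the vector in the labels. The deposited values are intensities: the authors labelled total RNA with Cy3 and read the arrays with Feature Extraction 10.7.3.1, whose processed intensity is background-subtracted but keeps each array's own brightness. A deposited table of all samples holds the same intensities, within 0.497%.

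Control spots were left out, log2 processed intensities were scaled to each array's 75th percentile, and spots of a probe were averaged. The brightest probe stood for a gene. Genes were tested where that probe was well above background, by the scanner's flag, on 4 or more arrays. Tests used R 4.3.3 and limma 3.58.1 (lmFit and eBayes with an intensity trend) over 20463 genes, with Benjamini-Hochberg adjustment at 0.05. The statistics scripts were tested on simulated data. The study's methods name a rank product, which gives no error per gene and was not used. Tables and figures were made with Python 3.11.15, pandas 2.3.3 and matplotlib 3.10.9. Precision is limited by the number of arrays.

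All 37 members are named, and of each further list the called genes. One gene of the marker lists is not reported here. Members and lists were chosen with earlier results of these data known. File names carry 1 day for replicate 1 of every vector and another for replicate 2, of unstated meaning, so the numbers were taken to pair arrays across vectors, and replicate differences correlated across genes with r from -0.0628 to 0.259 between vectors. Gene names are those of the array design. Alternatives covered the scaling, background correction, filter, probe choice, replicate block, vector as a random block, single control vectors, each array left out, and other tests.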

Additional observations from a re-analysis of the deposited data

Results flagged for a closer look

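In 4 of 54 groups of 4 arrays (27 tested members, control and knockdown), 1 array stood far from the rest by the ratio of Dixon's test at its 95% critical value, where chance flags about 1 group in 20. For CXCL3 it was shNontarget replicate 2 at -1.49, with the other control arrays between -2.20 and -2.08. For IL1RN it was shNontarget replicate 1 at 3.52, the others lying between 2.50 and 2.62, and for TNF the same array at -0.76, the others between -0.07 and -0.03. For CXCL2 it was shBEX2-1 replicate 2 at 1.58, against 1.65 to 1.67 on the other knockdown arrays, a gap that is large only beside their small range.

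CCL5 and CXCL11 were not tested, yet each was well above background on 2 knockdown arrays and on no control array. The CCL5 arrays were both of shBEX2-1, and the CXCL11 arrays were 1 of each subline, at -4.66 and -6.11.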

How the results depend on the processing

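Leaving out 1 array at a time, between 5 and 12 members were called in BEX2-knockdown against control cells, where 8 were called with all arrays. The share over all genes moved too, between 6.09% and 23.1%, against 12.9% with all arrays. Without shNontarget replicate 1 and 2, 10 and 12 members were called, where 23.1% and 21% of all genes were. Against shControl alone 14 were called and against shNontarget alone 3, where 33.4% and 1.67% of all genes were. Quantile normalization, median centring, normexp background correction, the deposited table, the filter, the probe choice, the blocks and other tests gave between 6 and 9. Of all genes these settings called between 6.05% and 16.7%. The vector as a random block, with 16.7%, had an estimated correlation of -0.137, so that it could not widen the errors for arrays sharing a vector. With the methods' t-test 6 members were called after Benjamini-Hochberg adjustment, where 10.6% of all genes were. Without adjustment 10 members passed its threshold, and the unadjusted share over all genes is not given beside that count. CXCL5 and IL1B were called under all 22 alternatives, CXCL3, CCL20 and IL7 under all but shNontarget alone, while LIF was lost under 13, IL1A under 8 and CXCL1 under 4. Over all genes the share of calls that were higher was 51.6% and, with normexp, 63.2%.

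The replicate block left the same 8 calls in this comparison, reduced the calls for shBEX2-1 from 10 to 6 and for shBEX2-2 from 9 to 7, and changed no other call. For the contrasts of single sublines and of single vectors that follow, shares over all genes are not given. Their counts, and the changes in them, therefore cannot be read as particular to the members. Where an array was left out, its vector kept only 1 array. Leaving out 1 array gave between 0 and 23 calls for shBEX2-1, between 0 and 20 for shBEX2-2, between 0 and 18 between the control vectors and between 0 and 9 between the sublines. With both shNontarget arrays kept, the highest of these were 1, 5, 0 and 0, and quantile normalization gave 1 between the sublines, IL11.

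No called member changed sign, and fits that only left out arrays could not turn it, since the groups did not overlap. Of those not called, against shControl alone IL8 gave -0.04, IL23A -0.04, CXCL16 -0.08, IL18 0.04 and CSF2 0.37, which was called there (limma, adjusted p = 0.0155), and against shNontarget alone CCL2 gave 0.77, IL11 -0.27 and IL12A -0.50. CXCL16 gave -0.01 with normexp. Leaving out 1 array moved CXCL16 between -0.17 and 0.15, IL18 between -0.38 and 0.09, IL11 between -0.30 and 0.56, IL12A between -0.15 and 0.41 and CSF2 between -0.41 and 0.06. The causes were not tested. Calls among the surrounding lists were few and also varied, over all alternatives between 0 and 3 of the chemokine receptors and 1 and 6 of the cytokine receptors. The NF-kB components gave between 0 and 8 and the NF-kB targets between 1 and 8, and RELB, NFKBIA and other genes are in both lists. Across the same alternatives the share of all genes called ran from 1.67% to 33.4%. Signal over background limits CXCL10, CXCL11, CCL5, IL12A and EBI3, which were dim on some or all arrays.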
